A study of Rattus norvegicus with 6 samples.

Results

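The 5 genes described here belong to the machinery of the cell division cycle and were followed in femur RNA of Wistar rats: Ccnd1, Pcna, Cdk1, Top2a and Mki67. They were chosen by Ensembl gene ID, 5 of the 32545 gene rows of the deposited count table, and all 5 rows were present and passed the filter on low counts that left 13431 genes for testing. The IDs are ENSRNOG00000020918 (Ccnd1), ENSRNOG00000021264 (Pcna), ENSRNOG00000000632 (Cdk1), ENSRNOG00000053047 (Top2a) and ENSRNOG00000028137 (Mki67). The names follow the pairs of ID and symbol that defined the set. The rat gene table used here holds each of the 5 symbols once, but it gives no Ensembl ID for any of its 47357 genes, so these pairs were neither supported nor contradicted by it.

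Polyadenylated RNA was sequenced from femur of rats in 2 groups of 3 libraries, controls and animals under chronic sleep deprivation (CSD). Wistar is an outbred laboratory stock, and no genotype, drug or other agent is labelled in either group. Labelled ages are 12, 13 and 14 weeks for controls 1, 2 and 3 and 15, 16 and 17 weeks for CSD 1, 2 and 3, while the text of the series gives 12 weeks, so group and labelled age cannot be told apart. Sex, the part of the femur, whether marrow was left in, how sleep was restricted and whether each library is 1 animal are not stated in the labels, so p-values reflect the spread among these libraries and that spread may be technical. Reads assigned to genes numbered 8366443 to 9572898 per library. Markers of bone, marrow, cartilage, muscle or fat were not checked, because no further ID could be matched to a name.

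A dividing cell passes through growth (G1), DNA replication (S), a second gap (G2) and mitosis (M). Cyclin D1, the product of Ccnd1, binds the kinases that open the way from G1 into S phase and responds to growth factor signalling. Pcna encodes the ring-shaped clamp that holds DNA polymerase on its template, Cdk1 the kinase that drives entry into mitosis, Top2a the topoisomerase that untangles replicated chromosomes, and Mki67 the Ki-67 protein that coats mitotic chromosomes and serves as a histological marker of cycling cells. In a long bone, cycling cells include growth plate chondrocytes, osteoblast precursors and, where marrow is present, the far more numerous precursors of blood cells. In bulk RNA, fewer cells of a type and less RNA per cell cannot be told apart.

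The promoters of the late genes of the cycle often carry boxes bound by the factor NF-Y and, nearer to the start site, a cell cycle homology region (CHR), the element through which MuvB-containing complexes hold these genes silent in resting cells and active in G2 and M. The members were chosen as cell cycle genes, so such motifs in their promoters are not independent of that choice. The sequences are shown as a description. RefSeq promoters (build GRCr8) were at hand for 4 of the 5 genes: Mki67, Top2a, Cdk1 and Pcna. The counts were made on rn6, and the positions below belong to GRCr8 alone. The 250 bases before each start site were searched on both strands for 3 motifs. The NF-Y box was spelled CCAAT and the core of the CHR was spelled TTTGAA. For sites of the E2F factors, which act at the start of S phase, the single form TTTCGCGC was used. Capitals mark matches to these motifs or their reverse complements, and each line runs 5′ to 3′ on the strand of the gene. For Mki67 the table's gene span covers the whole window, so only 30 bases with both CHR matches are shown, and for Cdk1 the 209 bases outside the gene span.
Mki67, chr1:199952683-199952712, minus strand: aaTTTGAAccgccgttttcgTTTGAATTGG
Top2a, chr10:84473094-84473343, minus strand: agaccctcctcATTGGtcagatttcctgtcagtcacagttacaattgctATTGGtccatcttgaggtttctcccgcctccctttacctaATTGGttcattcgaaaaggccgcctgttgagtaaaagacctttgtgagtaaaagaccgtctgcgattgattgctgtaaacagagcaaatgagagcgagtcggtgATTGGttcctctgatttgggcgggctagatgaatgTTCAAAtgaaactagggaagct
Cdk1, chr20:19265043-19265251, plus strand: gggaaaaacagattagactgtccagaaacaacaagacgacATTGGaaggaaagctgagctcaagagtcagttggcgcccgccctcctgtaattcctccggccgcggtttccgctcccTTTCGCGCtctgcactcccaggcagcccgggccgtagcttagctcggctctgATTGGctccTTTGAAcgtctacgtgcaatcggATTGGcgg
Pcna, chr3:139955821-139956070, minus strand: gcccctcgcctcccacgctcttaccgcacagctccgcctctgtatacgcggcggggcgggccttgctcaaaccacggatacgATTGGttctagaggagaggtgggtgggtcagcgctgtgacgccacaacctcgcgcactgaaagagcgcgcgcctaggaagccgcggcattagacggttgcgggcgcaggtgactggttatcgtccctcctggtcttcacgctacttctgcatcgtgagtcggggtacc

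In the full windows Mki67 held 4 NF-Y boxes and 2 CHR matches, Top2a 4 and 1, and Cdk1 3 and 2. Pcna held 1 NF-Y box and no match to the CHR letters in this window. The second CHR match of Mki67, beginning 99 bases before the start, shares its last base with an NF-Y box. Among 33469 rat promoters of the same length, 34.0% held at least 1 CCAAT, 16.2% at least 1 TTTGAA, and 0.469% a TTTGAA together with 3 or more CCAAT, the combination found in Mki67, Top2a and Cdk1. The E2F form TTTCGCGC was in 0.248% of promoters and, among these 4, in Cdk1. These are matches of letters, not measured binding. The cut of 3 CCAAT equals the lowest number found among Mki67, Top2a and Cdk1. The share of 0.469% is therefore a description and no test of these genes.

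**Figure D1:**
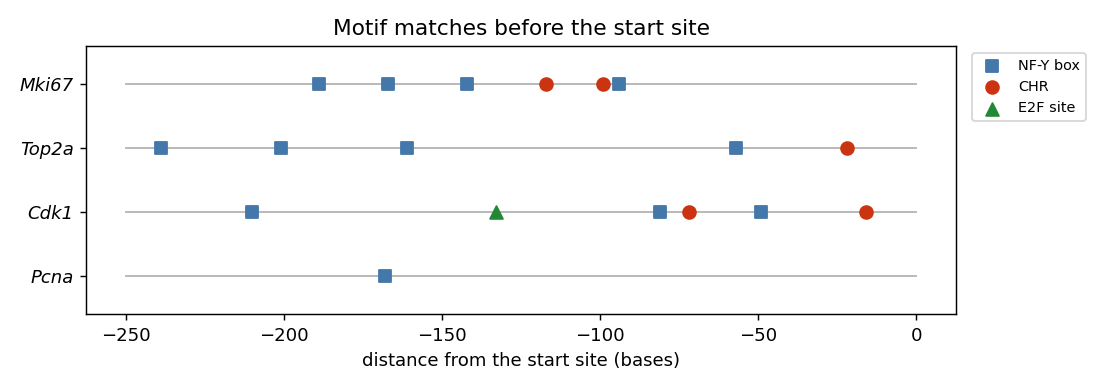
Position of each motif match in the 250 bases before the RefSeq start site of 4 genes; the horizontal axis is the distance from the start in bases, to the first base of the match, squares are NF-Y boxes, circles CHR matches and the triangle the E2F form. Mki67, Top2a and Cdk1 each hold at least 3 NF-Y boxes and at least 1 CHR match, and Pcna holds 1 NF-Y box.

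The question put to these genes was whether their RNA differed between CSD and control femurs. Their fitted values lay on both sides of the control level. Ccnd1 and Mki67 lay at 63.2% and 65.0% of the control level in the fit, Top2a at 85.4%, and Cdk1 and Pcna at 109% and 113%. In 2 of the 5 genes, Ccnd1 and Mki67, all 3 CSD libraries lay below all 3 controls, and in none did they lie above; of all tested genes 8.05% lay below in this way and 8.77% above. None of the 5 passed edgeR's quasi-likelihood test at an adjusted p of 0.05, where the background was 0% (0 of 13431 genes, with 1679 at an unadjusted p under 0.05, 278 called by DESeq2 on the same genes, 298 by DESeq2 on all genes with reads and 0 by limma-voom). Unadjusted, Ccnd1 and Mki67 had a p under 0.05, both lower in CSD, against 6.39% of tested genes lower, 6.11% higher and 12.5% in either direction. With any 1 library left out, this count of 2 became 1 (Ccnd1) in 5 cases and 3 (Ccnd1, Mki67 and Top2a) without CSD 1. The share of all tested genes at an unadjusted p under 0.05 moved too: it was 19.9% without CSD 1 and 6.32% to 14.5% in the other 5 cases. The median log2 fold change was -0.23 over the 5 genes and 0.00 over all tested genes, whose quartiles were -0.22 and 0.19. Levels are given as CPM, the reads of a gene scaled to the reads in all tested genes of its library with TMM factors. The log2 fold changes and their p-values come from edgeR's fit to all tested genes. Levels of different genes are not compared, because gene lengths were not at hand.

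**Figure D2:**
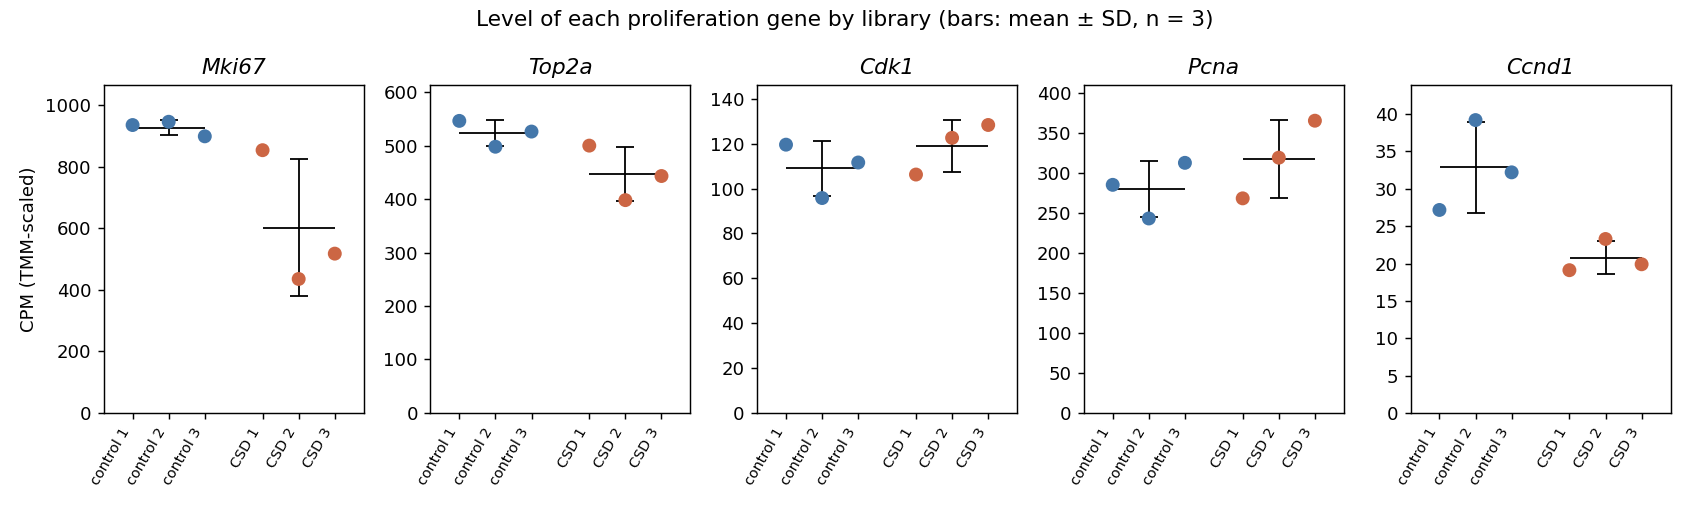
Level of each gene in TMM-scaled CPM in each library; points are libraries (controls blue, CSD orange), the horizontal bars are group means and the whiskers SD (n = 3). Ccnd1 and Mki67 separate the groups; CSD 2 and CSD 3 are the lowest libraries for Mki67 and Top2a and the highest for Cdk1 and Pcna. Each panel has its own scale.

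Ccnd1, the G1 cyclin, had the fewest reads of the 5 genes, 164 to 370 per library. Its level was 27.2, 39.2 and 32.2 CPM in controls 1, 2 and 3 and 19.1, 23.3 and 19.9 CPM in CSD 1, 2 and 3. The highest CSD library (CSD 2) was thus below the lowest control (control 1). The controls averaged 32.9 ± 6.04 CPM and the CSD libraries 20.8 ± 2.22 CPM (SD, n = 3). The log2 fold change was -0.66 (SE 0.171), with a 95% interval of 48.1% to 82.9% of the control level (edgeR, unadjusted p = 0.00440, adjusted p = 0.240). By p it ranked 244th of 13431 genes, and 6.75% of tested genes had a lower fold change.

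The coefficient of variation of Ccnd1 was 18.4% among controls and 10.7% among CSD libraries, and its read numbers set a counting error of about 5.75% and 7.48% per library. Control 2 was the highest library, and without it the log2 fold change was -0.51 (edgeR, adjusted p = 0.553). The direction and an unadjusted p under 0.05 held in all 16 alternative fits; the adjusted p ran from 0.0733 (DESeq2 on the same genes) to 0.553.

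Pcna, the replication clamp, stood at 285, 243 and 312 CPM in controls 1, 2 and 3. In CSD 1, 2 and 3 it stood at 268, 319 and 365 CPM. CSD 1 lay among the controls, and CSD 2 and CSD 3 lay above all of them. The control mean was 280 ± 35.0 CPM and the CSD mean 317 ± 48.5 CPM (SD, n = 3). The log2 fold change was 0.18 (SE 0.158; edgeR, adjusted p = 0.649). The 95% interval, 88.2% to 146% of the control level, includes lower as well as higher levels. The values rested on 2291 to 3098 reads per library.

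Cdk1, the mitotic kinase, ran almost in the order of Pcna. Its level was 120, 95.8 and 112 CPM in controls 1, 2 and 3 and 106, 123 and 128 CPM in CSD 1, 2 and 3. CSD 3 and CSD 2 were again the highest libraries and control 2 the lowest, with CSD 1 next to it. Group means of 109 ± 12.1 and 119 ± 11.5 CPM (SD, n = 3) differed by less than 1 SD, and the log2 fold change was 0.13 (SE 0.132; edgeR, adjusted p = 0.702; 95% interval 88.6% to 135% of the control level). With libraries scaled to their totals alone, a scaling that moved the median of all genes to -0.13, the value for Cdk1 was -0.011, so its sign depends on the scaling, and relative to that median it was still higher.

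Top2a, the topoisomerase of replicated chromosomes, was at 546, 498 and 526 CPM in controls 1, 2 and 3. In CSD 1, 2 and 3 it was at 500, 398 and 443 CPM. CSD 1 lay just above control 2, so the groups overlapped, while CSD 2 and CSD 3 lay below all other libraries. Means were 523 ± 24.3 and 447 ± 51.1 CPM (SD, n = 3), and the log2 fold change was -0.23 (SE 0.134; edgeR, adjusted p = 0.498; 95% interval 69.1% to 106% of the control level).

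Mki67, the Ki-67 gene, had the most reads of the 5, 3793 to 8926 per library. Controls 1, 2 and 3 had 935, 946 and 899 CPM. CSD 1, 2 and 3 had 854, 435 and 517 CPM. The controls and CSD 1 lay close together, and CSD 2 and CSD 3 stood far below them. The mean was 927 ± 24.8 CPM for controls and 602 ± 222 CPM for CSD (SD, n = 3). The log2 fold change was -0.62 (SE 0.238), with a 95% interval of 44.5% to 94.8% of the control level (edgeR, unadjusted p = 0.0299, adjusted p = 0.365). It ranked 1100th of 13431 genes by p, and 7.67% of tested genes had a lower fold change.

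For Mki67 the coefficient of variation was 2.68% among controls and 36.8% among CSD libraries. The difference between the groups therefore rested mostly on CSD 2 and CSD 3. Without CSD 1 the log2 fold change was -0.97 and the only one of the 5 genes' values to pass the threshold under any alternative (edgeR, adjusted p = 0.0214, with 230 genes called in that fit). Without CSD 2 it was -0.44 (edgeR, adjusted p = 0.827). The adjusted p over the 16 alternatives ran from 0.0214 to 0.827, and the sign was negative in all of them.

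**Figure D3:**
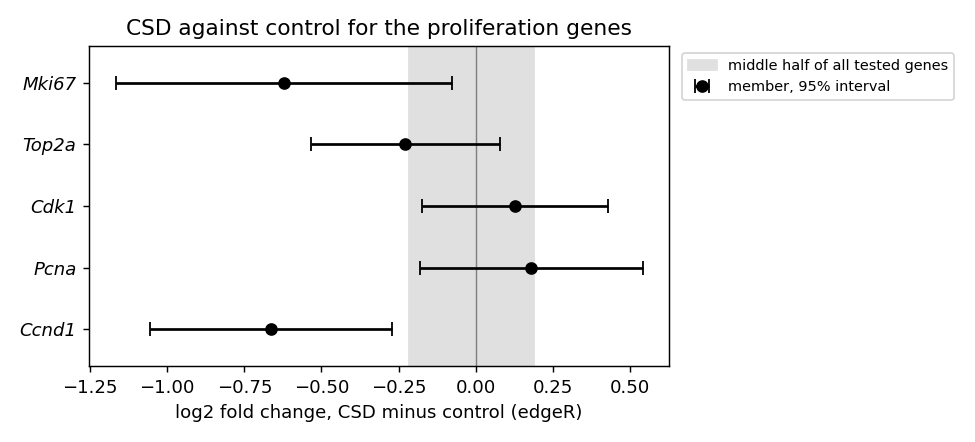
Log2 fold change of each gene, CSD minus control, from edgeR (horizontal axis), with 95% intervals; the grey band spans the quartiles of all 13431 tested genes, -0.22 to 0.19. The intervals of Ccnd1 and Mki67 lie below 0 and those of the other 3 genes include it.

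**Figure D4:**
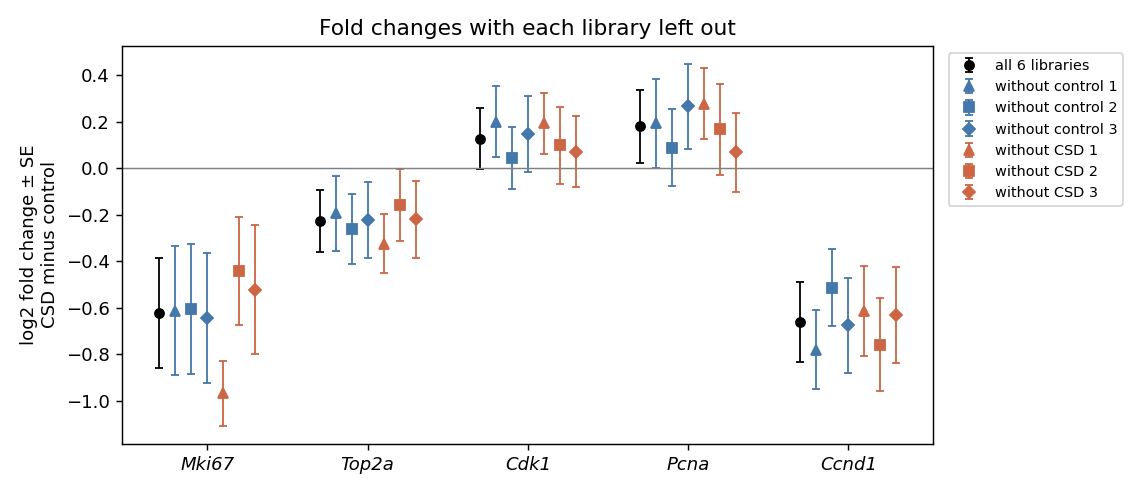
Log2 fold change ± SE of each gene (vertical axis) with all 6 libraries (black) and with each library left out in turn (controls blue, CSD orange). The points for Mki67 run from -0.97 without CSD 1 to -0.44 without CSD 2, and those for Ccnd1 from -0.78 to -0.51.

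Ratios of the read counts of 2 genes within a library do not depend on how libraries are scaled. A loss of reads that depends on transcript length and differs between libraries would not cancel in them. The messages of Mki67 and Top2a are known to be long and those of Cdk1 and Pcna short. No transcript lengths matched to the IDs were at hand. The part of length in the ratios and levels of these genes, Ccnd1 included, was therefore not tested. The ratio of Mki67 to Top2a reads was 1.71, 1.90 and 1.71 in controls 1, 2 and 3 and 1.71, 1.09 and 1.17 in CSD 1, 2 and 3. CSD 1 sat just under the lowest control, and CSD 2 and CSD 3 were well below. The ratio of Mki67 to Cdk1 was 7.82, 9.87 and 8.05 in controls and 8.03, 3.55 and 4.03 in CSD. Here CSD 1 lay among the controls. In CSD 2 and CSD 3, then, Mki67 reads were fewest while the CPM of Cdk1 was highest.

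The read ratio of Cdk1 to Pcna stayed between 0.352 and 0.420 in the 6 libraries. Over the same libraries Pcna itself ran from 243 to 365 CPM and Cdk1 from 95.8 to 128 CPM. How many other pairs of genes keep as narrow a ratio was not counted. The ratio of Cdk1 to Ccnd1 was 4.40, 2.44 and 3.47 in controls and 5.56, 5.27 and 6.45 in CSD. All CSD libraries were above all controls, also for Pcna over Ccnd1. Of the 10 pairs among the 5 genes, 3 had groups that did not overlap: Mki67 over Top2a, Cdk1 over Ccnd1 and Pcna over Ccnd1. Over all pairs of tested genes the share was 18.2%. The pairs with Ccnd1 share a gene that separated the groups on its own, and Mki67 over Top2a separated them only by 1.70706 in CSD 1 against 1.70733 in control 3. The mean log2 ratio in CSD minus that in controls was -0.45, 0.78 and 0.83 in these pairs. Each had p = 0.1 in an exact two-sided permutation test, the smallest that 3 libraries against 3 can give, and an adjusted p of 0.25 over the 10 pairs.

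**Figure D5:**
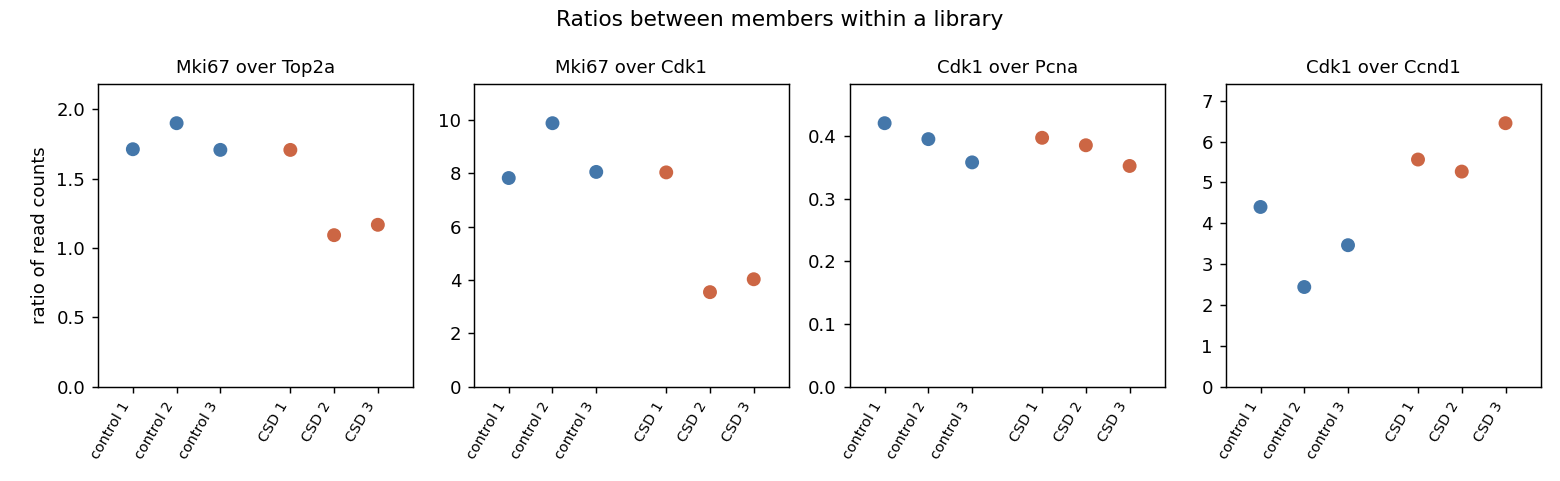
Ratio of the read counts of 2 genes within each library for 4 pairs (vertical axis from 0; controls blue, CSD orange). Mki67 over Cdk1 is between 7.82 and 9.87 in controls and CSD 1 and at 3.55 and 4.03 in CSD 2 and CSD 3, whereas Cdk1 over Pcna stays between 0.352 and 0.420.

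Other measures of CSD 2 and CSD 3 moved with the low Mki67 values. The share of reads outside any annotated feature was 45.5% and 45.7% in CSD 2 and CSD 3 and 46.9% to 47.1% in the other 4 libraries. Their TMM factors were 0.912 and 0.952, against 1.00 to 1.07 in the others. The part of these measures in the results was not tested.

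The late cell cycle genes were compared with all tested genes by the shape of their profile. The profiles of Mki67, Top2a and Cdk1 (log2 CPM, each centred on its mean over the 6 libraries) were averaged, and the root mean square distance of every tested gene from this average was taken. Top2a was nearest of all tested genes, at 0.0194 on the log2 scale: in each library its centred value lay between those of Mki67 and Cdk1, so the average is close to the profile of Top2a alone. Mki67 and Cdk1 lay at 0.287 and 0.269, close to the median of all genes (0.297), although they too are part of the average. The nearest other genes were ENSRNOG00000011908 (distance 0.0324, log2 fold change -0.26) and ENSRNOG00000002100 (0.0367, -0.29), which the files do not pair with names. Both were picked by their closeness over the same 6 libraries, so their fold changes follow from that choice.

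Some reads of these genes may be uncertain. RefSeq names 1 pseudogene of Mki67, 1 of Cdk1 and 3 of Pcna in the rat, and reads that fit a gene and its copy can be lost or split. No other gene in that table overlaps any of the 5, so overlap on the opposite strand is not recorded there for them.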

How the data were processed

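Raw counts of reads in each gene of 6 femur libraries stand in 1 table deposited by the authors. HISAT2 2.2.1, HTSeq 0.12.4 and build rn6 are named, per the submitters' processing notes; annotation release and strandedness: not given in the sources used here. Of each library's reads, 36.2% to 38.2% fell in genes. The 5 closing rows that name no gene stayed out of sizes and tests: outside features 45.5% to 47.1%, not unique 8.56% to 9.46%, low quality 3.11% to 3.69%, unaligned 2.90% to 3.81%, ambiguous 0.624% to 0.750%.

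Genes were filtered with filterByExpr, scaled with TMM and tested with edgeR 4.0.16's quasi-likelihood test (R 4.3.3, two-sided, no covariate), adjusted by Benjamini-Hochberg over all 13431 genes, threshold 0.05. Log2 fold changes carry a prior count of 0.125 and log2 CPM one of 2. SE is the absolute log2 fold change over the root of edgeR's F statistic, and intervals are at 95%. The test was checked on simulated counts. DESeq2 1.42.0 and limma 3.58.1 were alternatives, with other scalings and filters, a replicate block and each library left out. No label says that shared replicate numbers mark a shared litter or day.

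The members and lists were chosen with earlier results of these data known. All members are described; the 2 nearest genes are given by ID. The 4 lists of other cell cycle genes and 9 of cell type markers were not tested, as 0 IDs matched the rat gene table.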

Additional observations from a re-analysis of the deposited data

How the results depend on the processing

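The count of 0 genes called over the whole table became 112 with no filter on low counts, 278 with DESeq2 on the same genes, 298 with DESeq2 on all genes with reads, 104 with a replicate block (the number in the titles) and 0 to 230 with 1 library left out (151 without control 1, 230 without CSD 1, 73 without CSD 3); the cause was not tested. It stayed at 0 with DESeq2-style size factors, upper-quartile factors, library totals, the CPM minimum, limma-voom and robust edgeR. Of 80 values for the 5 genes under alternatives, 1 changed sign, Cdk1 with library totals alone (-0.011), and 1 passed the threshold, Mki67 without CSD 1. With 1 library left out, the log2 fold change ran from -0.97 to -0.44 for Mki67, and the median of the 5 genes from -0.32 to -0.16. The count of the 5 genes at an unadjusted p under 0.05 was 2, and 1 to 3 with 1 library left out, an alternative chosen after the data were seen; with library totals it was 3, the third being Top2a, whose value of -0.36 was -0.23 relative to the median of all genes under that scaling (-0.13), as in the main result. The replicate block changed no call of the 5 genes (Mki67 -0.68, Ccnd1 -0.65). The numbers were not taken as pairs, because no label says what they mark. Libraries sharing a number had deviations from their group means that correlated at -0.01, -0.06 and 0.17 over all tested genes. No values for libraries with different numbers stand beside these, so they cannot show whether pairs exist. Depth limits Ccnd1 most, with counting error of 5.75% to 7.48% of its level.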
